A study of Mus musculus with 6 samples.

Results

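Receptor tyrosine kinases are membrane receptors that carry their own kinase domain. A growth factor outside the cell brings receptors together, they phosphorylate each other, and adaptor proteins then start the Ras to MAP kinase and the PI3 kinase to AKT cascades. In the melanocyte lineage, Kit and its ligand (Kitl, stem cell factor) are known for the survival and migration of melanoblasts, Met, Erbb3 and the fibroblast growth factor receptors for growth and migration, and Tyro3, Axl and Mertk as receptors that the ligand Gas6 binds. The gene set described here holds 36 genes: 35 receptors chosen by name, without Eph receptors, Ror or Ryk, and Kitl. All 36 have a row among the 35275 gene rows of the read count table.

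The counts come from RNA of Melb-a cells, an immortal line of mouse melanoblasts of genotype C57BL/6J. The treated cells received 10 µM iBRD9, an inhibitor of the bromodomain of BRD9, a SWI/SNF subunit, and the controls received the vehicle DMSO, each for 48 h and in 3 independent samples. Both groups were in DMEM with 10% serum, 2 nM of the melanocortin agonist NDP-alpha MSH and 200 nM of phorbol-myristate-acetate, a protein kinase C activator. Before that, all cells had grown in RPMI with 10% serum, 40 pM of a fibroblast growth factor that the labels do not specify and 10 ng/ml of stem cell factor, so ligands of Kit and of the FGF receptors were supplied during growth. Melb-a is 1 cell line, and the design has no other inhibitor and no BRD9 mutant, so the values describe the compound rather than the protein it binds.

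The libraries held 22846391 to 29680952 counts. All 8 melanocyte lineage markers examined (Mitf, Sox10, Pax3, Pmel, Mlana, Dct, Tyrp1, Tyr) were expressed (1 rose, 5 fell and 2 did not pass), with summed levels of 14919 to 16420 CPM (counts scaled to a common library size) in iBRD9 libraries and 15577 to 17899 CPM in DMSO libraries. The sums were mostly Dct, which rose, and Tyrp1, which fell. Tyr fell the most of the 8, at 87.8 CPM in iBRD9 cells and 537 CPM in DMSO cells (log2 fold change -2.61, edgeR adjusted p = 1.44e-07). Of 13602 genes tested with edgeR, 8262 passed an adjusted p of 0.05 (60.7%), with 4057 higher and 4205 lower in iBRD9 cells. Scaling by library size alone moved the median log2 fold change of all tested genes by 0.11 and gave 4999 higher and 3385 lower. DMSO replicate 1 differed from the DMSO libraries 2 and 3 by more than those differed from each other. Chi-square per degree of freedom was 29.2 and 37.5, against 3.06 between DMSO replicates 2 and 3. iBRD9 replicate 1 stood apart in the same way, at 6.33 and 6.33, against 1.93 between iBRD9 replicates 2 and 3. Without DMSO replicate 1, 5159 genes were called higher and 5152 lower, and without iBRD9 replicate 1, 3314 and 3622. Among the 11 receptor genes that passed the test, DMSO replicate 1 was the DMSO library nearest the iBRD9 mean for 10, Met being the exception. Values without DMSO replicate 1 are therefore given beside each of them. For Ptk7, which had 0 counts in DMSO replicates 2 and 3, this is a ratio to a floor of 3 counts rather than a fit. The iBRD9 library nearest the DMSO mean was replicate 1 for 6 of the 11 and replicate 2 for 5.

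Of the 36 genes, 34 had at least 1 count, and Ntrk2 and Alk had 0 in every library, which allows at most 3 counts or 0.131 CPM in the shallowest library. Counts were high enough for the test in 21 genes, all receptors. Of these, Csf1r and Ptk7 passed the filter on low counts only through the iBRD9 libraries, where they were high, so their difference is in part built into the filter. In iBRD9 cells 6 receptors rose (Fgfr1, Fgfr2, Fgfr3, Igf1r, Csf1r and Ptk7), 5 fell (Erbb3, Tyro3, Ddr2, Ntrk3 and Met), and 10 did not pass. That is 52.4% of the tested members, against 60.7% of all tested genes. Rises were 28.6% against 29.8%, and falls 23.8% against 30.9%. The number of receptors called is therefore near the background of this comparison. Of the 21 tested receptors, 4 rose and 4 fell by at least 2-fold, against 9.41% and 5.46% of all tested genes. Both shares are above those of all tested genes, but rest on few receptors and were not tested. The 4 that rose include Csf1r and Ptk7, which passed the filter only through the iBRD9 libraries. The iBRD9 and DMSO libraries were fully separated for 11 of 21 tested receptors, and for 68% of all tested genes. The median log2 fold change of the tested receptors was 0.14, against 0.01 for all tested genes, and it moved between 0.03 without DMSO replicate 3 and 0.17 without DMSO replicate 1.

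**Figure D1:**
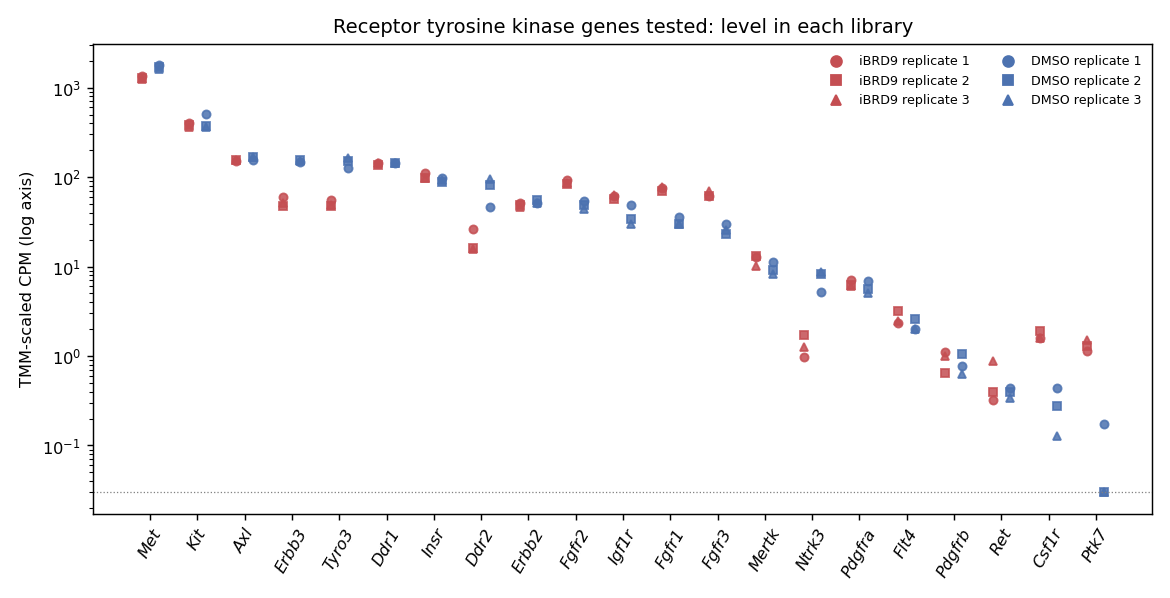
Level of each of the 21 tested receptor genes in every library, as TMM-scaled CPM on a log axis, ordered by the DMSO mean. Red symbols are the 3 iBRD9 libraries and blue symbols the 3 DMSO libraries; a value of 0 (Ptk7 in DMSO replicates 2 and 3) is drawn at 0.03 on the dotted line. The red and blue symbols separate for Erbb3, Tyro3, Ddr2 and Ntrk3 (red below) and for the 3 FGF receptors, Csf1r and Ptk7 (red above). The values of Met (red below) and Igf1r (red above) do not overlap either, by a smaller margin.

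The FGF receptors rose together. Fgfr1, Fgfr2 and Fgfr3 encode the receptors of fibroblast growth factors, which signal with heparan sulfate as a cofactor. Fgfr1 (ENSMUSG00000031565) stood at 76.1, 70.7 and 78.1 CPM in iBRD9 cells, against 36.1, 29.7 and 30.2 CPM in DMSO cells. Every iBRD9 library was above every DMSO library, and the log2 fold change was 1.23 (SE 0.088, edgeR adjusted p = 1.81e-05), with 1.31 without DMSO replicate 1. Fgfr3 (ENSMUSG00000054252) stood at 61.9, 61.5 and 70.0 CPM in iBRD9 cells, against 30.1, 23.3 and 25.4 CPM in DMSO cells, again with no overlap. Its log2 fold change was 1.30 (SE 0.103, edgeR adjusted p = 2.86e-05), with 1.40 without DMSO replicate 1. Fgfr2 (ENSMUSG00000030849), at 92.1, 84.3 and 86.8 CPM in iBRD9 cells and 54.0, 48.3 and 43.7 CPM in DMSO cells, rose as well, with no overlap. Its log2 fold change was 0.85 (SE 0.085, edgeR adjusted p = 8.29e-05), with 0.92 without DMSO replicate 1. The family's other receptor in the set, Fgfr4, had 8 counts in all iBRD9 libraries and 8 in all DMSO libraries, too few to test. Summed over the 4 genes, FGF receptor transcripts came to 227 ± 9.61 CPM in iBRD9 cells and 107 ± 11.4 CPM in DMSO cells (SD, n = 3 each).

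The genes around these receptors moved in both directions. Fgfrl1, an FGF-binding receptor without a kinase domain, was higher at 110.3 ± 3.31 CPM in iBRD9 cells than in DMSO cells at 50.1 ± 3.91 CPM (SD, n = 3 each; log2 fold change 1.14, edgeR adjusted p = 9.74e-06). Fgf1, a ligand that binds all FGF receptors, was lower, at 4.94, 4.52 and 5.53 CPM in iBRD9 cells and 19.7, 25.3 and 29.6 CPM in DMSO cells (log2 fold change -2.32, edgeR adjusted p = 1.72e-05). It was the sole FGF gene of the ligand list with enough counts to test. Exons of Fgfr2 overlap those of Ctbp2 on the same strand over 3.04% of their length, and Ctbp2 had a log2 fold change of -0.004. Fgfr3 shares 13.9% of its exon length with an opposite-strand gene, G630022F23Rik, that was not analysed here, and nothing in the labels says that the libraries keep strand, so the level of Fgfr3 is uncertain to that extent.

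The promoters of Fgfr2 and Fgfr3, which moved together, are shown because they differ in composition. RefSeq's windows (build GRCm38.p6, 250 bases before to 50 after the start) match 28 of the 36 genes with 34 windows. Capitals mark CACGTG (the E-box core that MITF and other factors can bind), TGANTCA (the AP-1 element), GGGCGG (the GC box), ACAAAG (a SOX element) and CATGTG, each searched on both strands. The Fgfr2 window (chr7:130266759-130267058, minus strand) has a GC content of 43.7% with 4 CpG and holds 1 CACGTG. The Fgfr3 window (chr5:33721474-33721773, plus strand, the earlier listed of 2 starts) has a GC content of 69.7% with 26 CpG and holds 4 GGGCGG. Over all 32851 windows the median GC content was 52.7%, and CACGTG was found in 7.15% and GGGCGG in 35.7%.
Fgfr2: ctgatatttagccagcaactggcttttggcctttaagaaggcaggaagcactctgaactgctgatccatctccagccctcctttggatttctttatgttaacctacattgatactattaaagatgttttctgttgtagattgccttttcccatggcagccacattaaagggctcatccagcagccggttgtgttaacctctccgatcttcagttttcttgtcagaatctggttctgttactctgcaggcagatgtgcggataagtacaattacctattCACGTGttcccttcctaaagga
Fgfr3: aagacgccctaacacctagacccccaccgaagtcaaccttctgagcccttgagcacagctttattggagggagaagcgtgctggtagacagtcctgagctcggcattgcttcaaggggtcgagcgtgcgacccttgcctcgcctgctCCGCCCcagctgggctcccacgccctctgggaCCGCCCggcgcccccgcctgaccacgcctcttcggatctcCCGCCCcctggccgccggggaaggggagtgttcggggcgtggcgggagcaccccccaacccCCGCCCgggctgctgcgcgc

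In the ERBB family Erbb3 fell and Erbb2 did not pass the test. Erbb3, a receptor of neuregulins that has little kinase activity of its own and signals through a partner such as Erbb2, is known in neural crest cells and their glial and melanocyte descendants. Erbb3 (ENSMUSG00000018166) stood at 60.5, 47.5 and 51.3 CPM in iBRD9 cells, against 146, 155 and 153 CPM in DMSO cells. The groups were far apart, with a log2 fold change of -1.51 (SE 0.091, edgeR adjusted p = 8.07e-06) and -1.54 without DMSO replicate 1. Erbb2 stood at 51.4, 49.1 and 46.7 CPM in iBRD9 cells and 51.4, 54.8 and 50.9 CPM in DMSO cells, which overlap (log2 fold change -0.09, edgeR adjusted p = 0.245). On the scale of CPM per kilobase of merged exons, the ratio of Erbb3 to Erbb2 was 1.02, 0.836 and 0.9497 in iBRD9 libraries and 2.46, 2.45 and 2.60 in DMSO libraries. Egfr had 1 count in each group in all, and Erbb4 had 5 in iBRD9 libraries and 2 in DMSO libraries.

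Ligands and a known inhibitor of this family changed as well. Nrg2, a neuregulin, rose to 14.3, 13.4 and 15.1 CPM in iBRD9 cells, against 4.64, 4.18 and 4.55 CPM in DMSO cells (log2 fold change 1.68, edgeR adjusted p = 9.74e-06), while Nrg1 had 18 counts in all 6 libraries. The Egfr ligands Tgfa (log2 fold change -0.43) and Hbegf (-0.59) fell and Egf rose (0.84). Lrig1, a membrane protein that promotes the degradation of ERBB receptors and Met, was at 24.6 ± 1.87 CPM in iBRD9 cells and 5.38 ± 0.842 CPM in DMSO cells (SD, n = 3 each; log2 fold change 2.20, edgeR adjusted p = 6.38e-06). Schwann cells also express Erbb3, and S100b, a marker of these cells that melanocytes express too, stood at 26.4 ± 1.16 CPM in iBRD9 cells and 91.0 ± 23.9 CPM in DMSO cells (SD, n = 3 each; log2 fold change -1.78, edgeR adjusted p = 8.42e-05). Its part in the Erbb3 result was not tested; in bulk RNA, fewer cells of a type and less RNA per cell cannot be told apart.

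The TAM receptors bind Gas6, and Tyro3 and Mertk also bind protein S. The family is known for clearing dying cells and for survival signals. Tyro3 fell, and Axl and Mertk did not pass. Tyro3 (ENSMUSG00000027298) stood at 55.8, 48.1 and 48.3 CPM in iBRD9 cells, against 126, 152 and 163 CPM in DMSO cells. Every iBRD9 library was below every DMSO library by a wide margin, with a log2 fold change of -1.54 (SE 0.107, edgeR adjusted p = 1.57e-05) and -1.64 without DMSO replicate 1. Axl stood at 152, 155 and 155 CPM in iBRD9 cells and 154, 166 and 170 CPM in DMSO cells (log2 fold change -0.09, edgeR adjusted p = 0.214), and passed without DMSO replicate 1 (-0.14, edgeR adjusted p = 0.00553). Mertk, at 12.7, 13.0 and 10.3 CPM in iBRD9 cells and 11.2, 9.15 and 8.22 CPM in DMSO cells, had a log2 fold change of 0.34 (edgeR adjusted p = 0.0695) and passed without DMSO replicate 1 (0.46, edgeR adjusted p = 0.000863). On the per-kilobase scale the ratio of Tyro3 to Axl was 0.299, 0.253 and 0.253 in iBRD9 libraries and 0.665, 0.745 and 0.782 in DMSO libraries. Gas6 had 58.4 ± 2.11 CPM in iBRD9 cells and 54.1 ± 1.91 CPM in DMSO cells (SD, n = 3 each), with no overlap. Its log2 fold change was 0.11 (edgeR adjusted p = 0.143), and it passed without DMSO replicate 1 (0.13, edgeR adjusted p = 0.0252). Pros1, the gene of protein S, had 1 count in all libraries.

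**Figure D2:**
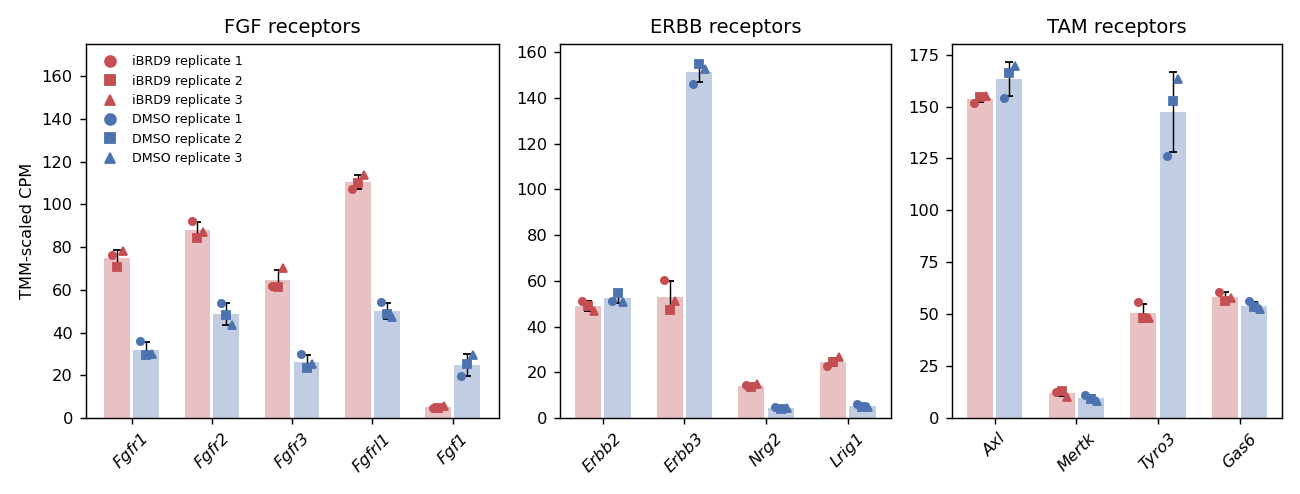
Levels of FGF, ERBB and TAM receptor genes with a ligand or regulator of each, as TMM-scaled CPM on linear axes that start at 0 and differ between panels. Bars are means of 3 libraries, error bars the SD, symbols the single libraries, with iBRD9 in red left of DMSO in blue. Fgfr1, Fgfr2, Fgfr3, Fgfrl1, Nrg2 and Lrig1 are higher and Fgf1, Erbb3 and Tyro3 lower in iBRD9 cells, while the symbols of Erbb2, Axl and Mertk lie close together or overlap.

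Of the discoidin domain receptors, which collagens activate, Ddr2 fell and Ddr1 did not pass the test. Ddr2 (ENSMUSG00000026674) stood at 26.2, 16.1 and 15.9 CPM in iBRD9 cells, against 46.7, 80.8 and 94.8 CPM in DMSO cells. The groups did not overlap, though DMSO replicate 1 was nearer to the highest iBRD9 library than to the other DMSO libraries. The log2 fold change was -1.93 (SE 0.280, edgeR adjusted p = 0.000560), with -2.16 without DMSO replicate 1 (edgeR adjusted p = 0.00558). Ddr1 stood at 145, 138 and 146 CPM in iBRD9 cells and 143, 143 and 144 CPM in DMSO cells (log2 fold change -0.01, SE 0.051, edgeR adjusted p = 0.911). The collagen genes of the fibroblast marker list went both ways, with Col1a1 higher (log2 fold change 2.36) and Col1a2 lower (-1.95) in iBRD9 cells. Of the 8 genes of that list 4 were tested, 2 rose and 1 fell, and they summed to 125 to 138 CPM in iBRD9 libraries and 68.8 to 95.1 CPM in DMSO libraries, mostly Dcn, with Dpt at 0. Their part in the Ddr2 result was not tested.

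Ntrk3, the receptor of neurotrophin 3, had the largest called fall of the receptors on the log2 scale. Ntrk3 (ENSMUSG00000059146) stood at 0.974, 1.72 and 1.27 CPM in iBRD9 cells, against 5.17, 8.28 and 8.60 CPM in DMSO cells. These are 30, 43 and 30 counts and 119, 210 and 204 counts, with no overlap. The log2 fold change was -2.49 (SE 0.268, edgeR adjusted p = 0.000122), with -2.70 without DMSO replicate 1. Its ligand gene Ntf3 had 0 counts in every library.

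Met, the receptor of hepatocyte growth factor, was by far the most abundant receptor of the set and fell by the least of those called. Met (ENSMUSG00000009376) stood at 1357, 1283 and 1245 CPM in iBRD9 cells, against 1775, 1722 and 1621 CPM in DMSO cells. The highest iBRD9 library was below the lowest DMSO library, and the log2 fold change was -0.40 (SE 0.065, edgeR adjusted p = 0.00104), with -0.38 without DMSO replicate 1. Its ligand gene Hgf had 0 counts in every library. The relative of Met, Mst1r, had 30 counts in iBRD9 libraries and 12 in DMSO libraries and was not tested.

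Promoter windows of 3 receptors that fell are shown for comparison with those of the FGF receptors. The Tyro3 window (chr2:119799264-119799563, plus strand) has a GC content of 73.3% with 31 CpG and 6 GGGCGG, of which the last 3 overlap each other. The Met window (chr6:17463707-17464006, plus strand) has a GC content of 75.7% with 34 CpG, and holds 1 CACGTG, 1 TGANTCA and 3 GGGCGG. The Ddr2 window (chr1:170088895-170089194, minus strand) has a GC content of 39.0% with 2 CpG and none of the motifs searched, so no letters are in capitals. Over all windows, TGANTCA was found in 7.81%, ACAAAG in 18.7% and CATGTG in 14.2%. Among the 34 windows of the set, GGGCGG was found in 22, CACGTG in 3 (Fgfr2, Flt3 and Met), ACAAAG in 3, TGANTCA in 2 and CATGTG in 1, which describes the windows and was not tested. Of the 5 windows shown, those of the receptors that rose and of those that fell each include GC-rich and GC-poor ones. Fgfr2 and Fgfr3 were chosen for their difference in composition, so this cannot show whether composition goes with direction.
Tyro3: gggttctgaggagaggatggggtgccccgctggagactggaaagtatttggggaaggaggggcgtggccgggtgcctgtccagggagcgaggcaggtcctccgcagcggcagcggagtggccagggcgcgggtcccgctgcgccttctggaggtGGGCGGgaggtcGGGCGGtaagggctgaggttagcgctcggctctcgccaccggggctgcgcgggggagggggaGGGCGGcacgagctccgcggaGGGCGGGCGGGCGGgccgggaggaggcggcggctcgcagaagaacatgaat
Met: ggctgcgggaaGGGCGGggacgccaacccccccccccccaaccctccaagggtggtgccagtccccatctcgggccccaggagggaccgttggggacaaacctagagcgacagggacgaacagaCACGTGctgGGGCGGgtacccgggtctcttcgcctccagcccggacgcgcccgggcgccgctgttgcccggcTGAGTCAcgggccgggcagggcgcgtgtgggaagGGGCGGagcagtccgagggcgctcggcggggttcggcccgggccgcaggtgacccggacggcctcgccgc
Ddr2: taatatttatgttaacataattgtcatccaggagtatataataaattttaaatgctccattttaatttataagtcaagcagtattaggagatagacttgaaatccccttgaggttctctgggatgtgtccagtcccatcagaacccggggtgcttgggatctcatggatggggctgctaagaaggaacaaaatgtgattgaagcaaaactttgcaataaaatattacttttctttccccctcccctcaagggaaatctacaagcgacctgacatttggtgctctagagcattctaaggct

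Igf1r, the receptor of insulin-like growth factors, rose, and its relative Insr did not pass. Igf1r (ENSMUSG00000005533) stood at 62.2, 57.0 and 62.3 CPM in iBRD9 cells, against 48.9, 33.8 and 29.9 CPM in DMSO cells. DMSO replicate 1 was the highest of its group and still below all iBRD9 libraries, with a log2 fold change of 0.69 (SE 0.160, edgeR adjusted p = 0.00591) and 0.92 without that library. Insr, the insulin receptor gene, stood at 112, 98.6 and 97.3 CPM in iBRD9 cells and 98.8, 88.4 and 92.9 CPM in DMSO cells. These overlap (log2 fold change 0.14, edgeR adjusted p = 0.143), and Insr passed without DMSO replicate 1 (0.17, edgeR adjusted p = 0.00836). Igf1, the ligand gene, fell and was near the floor at 0.202 ± 0.00829 CPM in iBRD9 cells and 1.36 ± 0.210 CPM in DMSO cells (SD, n = 3 each; log2 fold change -2.73, edgeR adjusted p = 0.000125). It passed the filter on low counts only through the DMSO libraries, where it was high, so its difference is in part built into the filter. Igf2 was too low to test, with 24 counts in all libraries. Insrr had 1 count, in iBRD9 replicate 1.

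Csf1r and Ptk7 rose and were low in both groups. Csf1r (ENSMUSG00000024621), the receptor of macrophage colony-stimulating factor, had 49, 48 and 38 counts in iBRD9 libraries and 10, 7 and 3 counts in DMSO libraries. That is 1.71 ± 0.187 CPM in iBRD9 cells and 0.279 ± 0.154 CPM in DMSO cells (SD, n = 3 each), with a log2 fold change of 2.60 (SE 0.351, edgeR adjusted p = 0.000392) and 3.02 without DMSO replicate 1. Its exons overlap those of Hmgxb3 on the opposite strand over 15.1% of their length. Hmgxb3 had 12285 counts, against 155 for Csf1r, and a log2 fold change of -0.14, so the level of Csf1r is uncertain. Of 7 macrophage markers, Ptprc was at 0 and Adgre1 had 1 count in all libraries. The markers summed to 15.2 to 16.3 CPM in iBRD9 libraries and 17.5 to 22.7 CPM in DMSO libraries, mostly Lyz2 and Cd68. Csf1, the ligand gene, was lower at 39.9 ± 0.975 CPM in iBRD9 cells than in DMSO cells at 55.1 ± 3.61 CPM (SD, n = 3 each; log2 fold change -0.47, edgeR adjusted p = 0.000596). Ptk7 (ENSMUSG00000023972), a kinase-dead receptor of the Wnt and planar polarity pathways, had 35, 32 and 36 counts in iBRD9 libraries and 4, 0 and 0 in DMSO libraries, the 4 in DMSO replicate 1. The ratio of pooled CPM, scaled by library size alone, was 25.2 (exact 95% interval 9.54 to 94.1, counting error only). The TMM-scaled fit gave a log2 fold change of 4.44 (SE 0.652, edgeR adjusted p = 0.000599). Against DMSO replicates 2 and 3 alone, the pooled iBRD9 level of Ptk7 was 23.1 times a floor of 3 counts over both libraries. This value leaves out the error of the iBRD9 counts.

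**Figure D3:**
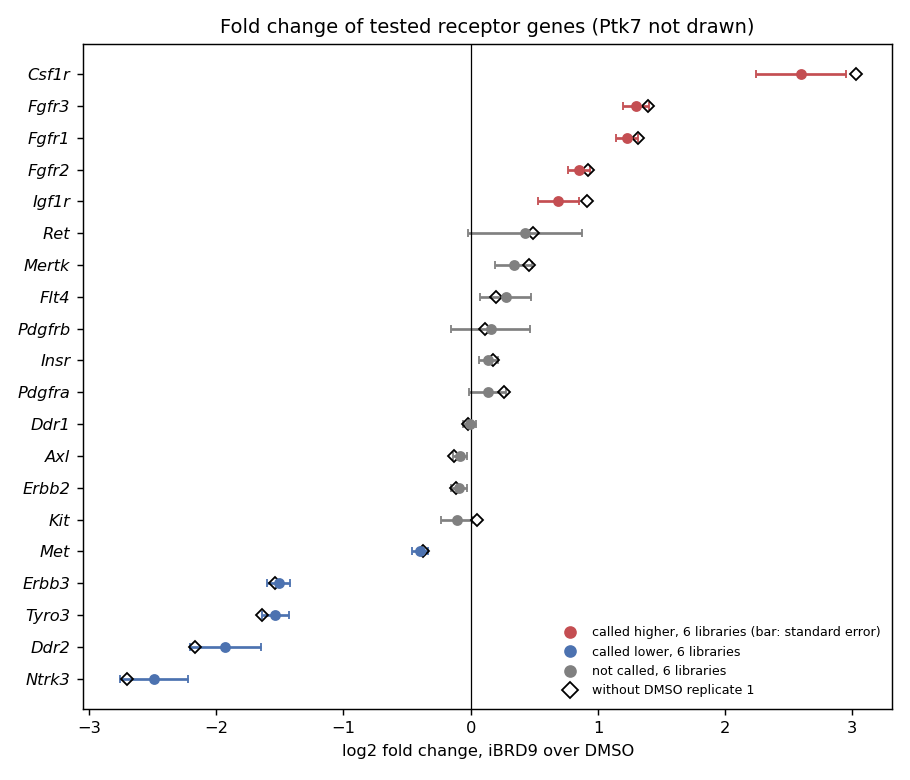
Log2 fold change of iBRD9 over DMSO for 20 of the 21 tested receptors, with the standard error as bars; filled points use 6 libraries and open diamonds leave out DMSO replicate 1. Red points were called higher, blue points lower, and grey points did not pass. Leaving out the library moves the diamonds of Csf1r, Igf1r, Ddr2 and Ntrk3 away from 0 and puts that of Kit, at 0.05, on the other side of it.

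Kit (ENSMUSG00000005672) showed no change that passed the test. Kit stood at 404, 382 and 368 CPM in iBRD9 cells and 508, 376 and 362 CPM in DMSO cells, where DMSO replicate 1 was above all other libraries. The log2 fold change was -0.11 (SE 0.122, edgeR adjusted p = 0.448) and 0.05 without that library. Kitl had 3, 0 and 2 counts in iBRD9 libraries and 2, 0 and 4 in DMSO libraries, at or near the floor in both. The other class III receptors were low. Pdgfra, a receptor of platelet-derived growth factor, had 6.46 ± 0.564 CPM in iBRD9 cells and 5.91 ± 0.944 CPM in DMSO cells (SD, n = 3 each; log2 fold change 0.13, edgeR adjusted p = 0.445). Pdgfrb had 0.919 ± 0.246 CPM in iBRD9 cells and 0.826 ± 0.220 CPM in DMSO cells (log2 fold change 0.16, edgeR adjusted p = 0.679), and Flt3 had 0 counts in iBRD9 libraries and 2 in DMSO libraries. Their ligand genes Pdgfa (log2 fold change 0.74) and Pdgfb (1.25) rose.

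The remaining receptors, of vessel, nerve and muscle cells, were low, and most were near the floor. Flt4, the receptor of Vegfc, had 2.65 ± 0.447 CPM in iBRD9 cells and 2.18 ± 0.332 CPM in DMSO cells (SD, n = 3 each; log2 fold change 0.27, edgeR adjusted p = 0.258). Ret, the receptor of the GDNF family, had 10, 10 and 21 counts in iBRD9 libraries and 10, 10 and 8 in DMSO libraries (log2 fold change 0.42, edgeR adjusted p = 0.431). Musk, the receptor through which agrin acts at the muscle synapse, had 3, 3 and 1 counts in iBRD9 libraries and 9, 11 and 6 in DMSO libraries. The groups did not overlap, and the pooled ratio was 0.263 (exact 95% interval 0.0964 to 0.622, counting error only). Ltk had 32 counts in iBRD9 libraries and 13 in DMSO libraries (pooled ratio 2.41, interval 1.23 to 4.99). Tek, the angiopoietin receptor, had 32 and 19 (pooled ratio 1.65, interval 0.905 to 3.07). Flt1 had 8 counts in iBRD9 libraries and 1 in DMSO libraries (pooled ratio 7.82, interval 1.05 to 347). Ros1 (7 in iBRD9 libraries and 1 in DMSO libraries) and Tie1 (1 and 2) were also detected by a few reads. None of the last 6 named entered the test.

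Set against each other per kilobase of merged exons, most receptor transcript came from a few genes. Met made up 49.3% ± 0.584 of the summed per-kilobase level of the 35 receptors in iBRD9 cells and 52.5% ± 0.919 in DMSO cells (SD, n = 3 each). Kit followed with 12.6% ± 0.202 in iBRD9 cells and 11.0% ± 1.82 in DMSO cells, then Axl with 8.95% ± 0.433 and 7.69% ± 0.610, and Ddr1 with 8.75% ± 0.349 and 7.11% ± 0.249. These 4 ranked in the same order in both groups, and the means of Axl and Ddr1 lay within about 1 SD of each other. Below them the order differed. Erbb3 and Tyro3 ranked 5 and 6 in DMSO cells and 7 and 9 in iBRD9 cells, while Fgfr3 ranked 6 in iBRD9 cells and 11 in DMSO cells. In iBRD9 cells Erbb2, Fgfr3, Erbb3, Fgfr2, Tyro3 and Fgfr1 had mean levels of 9.42 to 7.59 CPM per kilobase, so that neighbours in this order are close. The summed level of all 35 receptors was 2567 ± 103 CPM in iBRD9 cells and 3119 ± 121 CPM in DMSO cells, and Met alone contributed 1295 ± 57.2 CPM in iBRD9 cells and 1706 ± 78.0 CPM in DMSO cells. Merged exon lengths are from GENCODE M21, which is not the build the authors used.

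**Figure D4:**
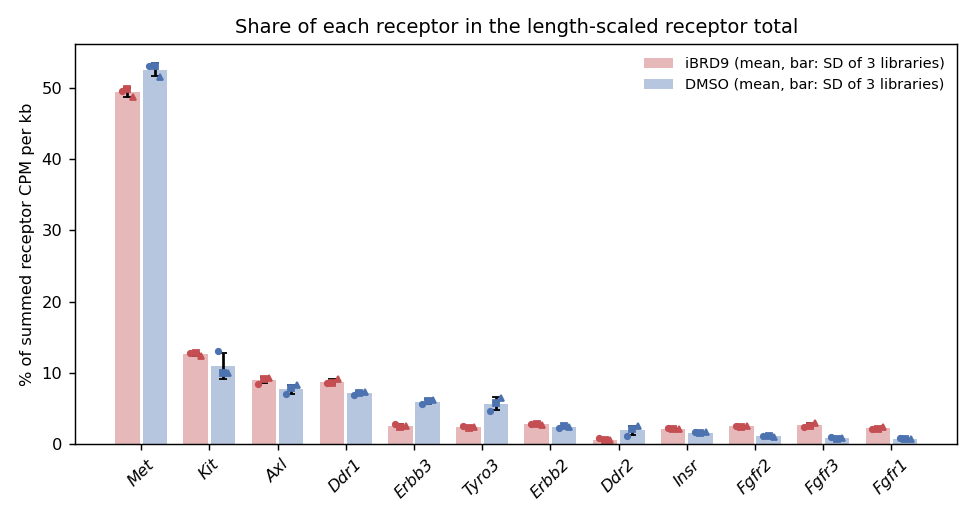
Share of each receptor in the summed CPM per kilobase of the 35 receptors, in percent, for the 12 with the highest DMSO share. Bars are means of 3 libraries with the SD, symbols the single libraries, and iBRD9 (red) stands left of DMSO (blue). Met holds 49.3% in iBRD9 cells and 52.5% in DMSO cells, and the red bars of Fgfr1, Fgfr2 and Fgfr3 are higher and those of Erbb3, Tyro3 and Ddr2 lower than their blue bars.

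Genes that act with these receptors were mixed in direction, and the counts of their lists stand against 29.8% of all tested genes that rose, 30.9% that fell and 60.7% that did either. Of 63 receptor ligands other than Kitl with a row, 26 were tested, 8 rose and 9 fell. The rises included Agrn, the most abundant ligand gene to rise (538 ± 30.8 CPM in iBRD9 cells and 293 ± 4.59 CPM in DMSO cells, SD, n = 3 each), and the falls included the vascular growth factor genes Vegfa (log2 fold change -0.97), Vegfb (-0.28) and Vegfc (-0.48). Of 20 co-receptors, 13 were tested, 5 rose and 5 fell. All 5 that fell are heparan sulfate proteoglycan genes: Gpc1 (-0.45), Sdc1 (-0.41), Sdc4 (-0.36), Sdc3 (-0.33) and Sdc2 (-0.32). Gpc4 (0.62), another gene of this kind, rose.

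Downstream of the receptors, 36 of 38 genes from adaptors to the MAP kinases were tested, of which 7 rose and 15 fell, again in a comparison where 29.8% of all tested genes rose and 30.9% fell. Mapk3, which encodes ERK1, was lower at 91.5 ± 2.70 CPM in iBRD9 cells than in DMSO cells at 172 ± 17.1 CPM (SD, n = 3 each; log2 fold change -0.91, edgeR adjusted p = 4.17e-05). Src, a cytoplasmic tyrosine kinase, fell alike (-0.97), while the kinase gene Rps6ka1 (0.59) and the Ras relative Rras2 (0.50) rose. In the PI3 kinase and AKT list 28 of 30 were tested, 8 rose and 8 fell. The regulatory subunit genes parted: Pik3r1 stood at 98.6 ± 3.89 CPM in iBRD9 cells and 60.1 ± 6.54 CPM in DMSO cells (log2 fold change 0.71), and Pik3r3 at 133 ± 8.22 CPM in iBRD9 cells and 316 ± 23.0 CPM in DMSO cells (-1.25; SD, n = 3 each). Phlpp2, a phosphatase that acts on AKT, rose (1.04), and Akt2 fell (-0.69). Of 33 genes that restrain receptors, 30 were tested, 9 rose and 12 fell, with the adaptor gene Sh2b2 (1.84) rising beside Lrig1, and the phosphatase gene Ptprf (-1.20) and the ubiquitin ligase adaptor gene Socs6 (-1.02) falling. All log2 fold changes in this and the previous paragraph are of genes with an edgeR adjusted p under 0.05. The medians of these 5 lists ran from -0.10 to 0.15, and from -0.14 to 0.14 when a library was left out, against 0.01 for all tested genes.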

How the data were processed

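RNA-seq of 6 mouse Melb-a samples was used, grouped by their titles. The authors deposited raw read counts per Ensembl gene ID. The submitters' processing notes name CASAVA 1.8.2, Bowtie2 2.4.5 and GRCm39; a counting program, annotation release and strand setting were not given in the sources used here. Symbols matched 34490 of 35275 IDs, and the 785 others held 0.0899% of counts. Members and gene lists were chosen with earlier results of these data known.

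Genes passing filterByExpr (minimum count 10) were scaled by TMM and tested together with the quasi-likelihood F-test of edgeR 4.0.16 (R 4.3.3), comparing iBRD9 with DMSO, with Benjamini-Hochberg adjustment and a threshold of 0.05. CPM are TMM-scaled, and the SE is the log2 fold change divided by the square root of F. Pooled CPM, pooled ratios and count floors instead use library size alone. Every member is reported. Of each pathway list, up to 2 rises and 2 falls of largest change are named among genes whose average log2 CPM reaches 1, with the ligands of called receptors. Other list genes named (Agrn, Pdgfa, Vegfb, Vegfc, Tgfa, Hbegf, Egf, Sdc2, Sdc3, Sdc4, Col1a1, Col1a2) were chosen after their values were seen. Lengths are merged exons of GENCODE M21 (GRCm38). Counting intervals are exact and cover counting error only. The fit was tested on simulated counts. Alternatives were DESeq2 1.42.0, limma-voom 3.58.1, other scalings and filters, the replicate number as a block, and leaving out each library. No libraries were duplicates: between replicates, chi-square per degree of freedom was at least 1.93. The full list of Schwann cell markers is not reported here.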

Additional observations from a re-analysis of the deposited data

How the results depend on the processing

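The 11 receptors called kept their direction and stayed under an adjusted p of 0.05 in all 13 alternatives each. Of 272 values of tested receptors under an alternative, 256 kept direction and side of the threshold, 7 newly passed (Mertk in 4, Insr in 2, Axl in 1) and 9 changed sign, none of them of a called receptor. The sign changes, as log2 fold changes, were Erbb2 (0.013), Axl (0.020) and Ddr1 (0.10) with library size alone, and Ddr1 with a filter at 1 CPM in 3 libraries (0.015). Over the fits that leave out 1 library, Kit ranged from -0.21 without DMSO replicate 3 to 0.051 without DMSO replicate 1, Pdgfrb from -0.011 without iBRD9 replicate 1 to 0.38 without DMSO replicate 2, Ddr1 from -0.024 without iBRD9 replicate 3 to 0.016 without iBRD9 replicate 2, and Ret from -0.11 without iBRD9 replicate 3 to 0.71 without iBRD9 replicate 1; the cause was not tested. With each library left out in turn, 6 to 8 receptors were called higher and 5 or 6 lower. Musk was called lower without a filter on low counts (-1.98, adjusted p = 0.0152) and Ltk higher without DMSO replicate 2 (2.16, adjusted p = 0.0249). With library size alone, 12 genes of the adaptor and MAP kinase list and 15 of the PI3 kinase list were called higher, against 7 and 8 in the main analysis; that scaling raises all log2 fold changes by about 0.11. The replicate numbers are not stated to mark a shared day, so they were not taken as pairs. Deviations of same-numbered libraries from their group means correlated at 0.118, 0.060 and 0.025. Differently numbered libraries of the 2 groups correlated at -0.100 to -0.045 where 1 of them was a replicate 1. Between replicates 2 and 3 the values were 0.040 and 0.047. Whether the replicates 1 share a batch was not tested. With the replicate block 7 receptors were called higher and 5 lower, and 3920 and 4017 of all genes. Depth limits the 15 untested members, where 3 counts are 0.101 to 0.131 CPM.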

Other observations

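Genes that cut, sort or degrade receptors and their ligands were also examined. Of 21 such genes, all tested, 8 rose and 9 fell (edgeR, adjusted p under 0.05), where 29.8% of all tested genes rose and 30.9% fell, with a median log2 fold change of 0.07, and -0.03 without DMSO replicate 1. Psen2 and Psenen, subunits of the gamma-secretase that cuts receptors such as Erbb4 within the membrane, fell: Psen2 was at 92.7 ± 6.37 CPM in iBRD9 cells and 165 ± 6.77 CPM in DMSO cells (log2 fold change -0.83), and Psenen at 23.5 ± 1.66 CPM in iBRD9 cells and 39.2 ± 6.71 CPM in DMSO cells (-0.73; SD, n = 3 each). Rhbdf1, which helps the sheddase ADAM17 to mature, rose to 59.7 ± 3.59 CPM in iBRD9 cells, against 36.3 ± 1.15 CPM in DMSO cells (log2 fold change 0.72), and Adam19 rose as well (0.65).

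The angiopoietin genes moved apart while their receptor genes Tek and Tie1 were too low to test. Angpt1 fell to 0.0772 ± 0.0446 CPM in iBRD9 cells, against 0.581 ± 0.044 CPM in DMSO cells (log2 fold change -2.86, edgeR adjusted p = 0.000816), and Angpt4 rose to 0.737 ± 0.0781 CPM in iBRD9 cells, against 0.225 ± 0.106 CPM in DMSO cells (1.70, edgeR adjusted p = 0.00449; SD, n = 3 each). Angpt2, the most abundant of these genes, rose as well. It had 2.37 ± 0.309 CPM in iBRD9 cells and 1.35 ± 0.504 CPM in DMSO cells (0.81, edgeR adjusted p = 0.0289), and did not pass in every alternative. All of these were named after their values were seen, and Angpt1 and Angpt4 are near the floor. Angpt1 passed the filter on low counts only through the DMSO libraries and Angpt4 only through the iBRD9 libraries, so their differences are in part built into the filter.

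Of the markers of other cell types, keratinocyte markers summed to 3.64 to 4.35 CPM in iBRD9 libraries and 3.50 to 4.21 CPM in DMSO libraries, nearly all Krt10, with Krt5, Krt15, Krt1 and Lor at 0. Endothelial markers summed to 47.3 to 52.2 CPM in iBRD9 libraries and 81.7 to 128 CPM in DMSO libraries, nearly all Vwf, and mast cell markers to 1.16 to 1.60 CPM in iBRD9 libraries and 1.05 to 1.52 CPM in DMSO libraries, nearly all Hdc.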
